A study of Mus musculus with 6 samples.

Results

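The endothelial genes examined here are 37 genes that mark the cells lining blood vessels or that those cells use when they are activated, taken by gene symbol from a table of 25031 genes. They divide into 34 identity genes, which define or maintain endothelium, and 3 activation genes (Icam1, Sele and Selp), which encode adhesion molecules that capture leukocytes. All 37 were found with counts in every library, and all 37 passed the filter on low counts that left 15416 genes for testing. RNA was sequenced from kidneys of male wild-type C57BL/6 mice, an inbred laboratory strain, at an age of 7 to 8 weeks. Every animal, controls included, went through 23 minutes of ischemia of both kidneys followed by reperfusion, with core temperature kept at 37 °C. The vehicle group (3 libraries) received saline, and the CePPy group (3 libraries) received (+)CePPy at 5 mg/kg by vein directly after the injury. (+)CePPy is a positively charged nanoparticle of cerium-doped polypyrrole. The series gives no time of collection in the sources used here, uninjured kidneys were not analysed here, and a whole kidney holds many cell types besides endothelium.

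The endothelium of the kidney lines glomerular capillaries, peritubular capillaries, larger vessels and lymphatics. Its identity is held by transcription factors of the ETS and SOX families, and its growth and stability depend on VEGF receptors and on the TIE receptors with their angiopoietin ligands. After ischemia, endothelial cells can display P-selectin, E-selectin and ICAM-1, on which leukocytes roll and then stop. Loss of peritubular capillaries is a known consequence of severe ischemic injury.

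The libraries held from 29762157 to 37415213 counts. Levels are in CPM, which corrects a count for library size, and a single count was worth 0.0266 to 0.0333 CPM. Nothing in the labels ties each library to an animal of its own, so every p-value here rests on variation among these 6 libraries, part of which may be technical. Libraries of the CePPy group were less alike than those of the vehicle group (chi-square per degree of freedom of 33.4 to 106 between pairs, against 19.7 to 28.2), and differed among themselves in lists of other cell types. The mean level of 6 proximal tubule markers, relative to the vehicle mean, was 1.07, 0.0942 and 0.669 log2 units in CePPy 1, 2 and 3. That of 7 neutrophil markers was -1.84, -0.755 and -1.45.

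The promoters of the activation genes are shown first, because these 3 genes are textbook targets of inflammatory signals. The windows are the 250 bases before the RefSeq start (GRCm38.p6) of Icam1 at chr9:21015690-21015939, Sele at chr1:164047984-164048233 and Selp at chr1:164115014-164115263, each on the plus strand. Capitals mark matches, on either strand, to GGAANTTCC, a form of the site bound by NF-kappaB, or to AGGAAG, a core bound by ETS factors.
Icam1: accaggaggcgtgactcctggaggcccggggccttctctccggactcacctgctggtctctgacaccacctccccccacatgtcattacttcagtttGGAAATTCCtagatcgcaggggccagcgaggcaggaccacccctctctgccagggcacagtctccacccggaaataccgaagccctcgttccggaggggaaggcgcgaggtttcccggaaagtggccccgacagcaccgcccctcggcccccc
Sele: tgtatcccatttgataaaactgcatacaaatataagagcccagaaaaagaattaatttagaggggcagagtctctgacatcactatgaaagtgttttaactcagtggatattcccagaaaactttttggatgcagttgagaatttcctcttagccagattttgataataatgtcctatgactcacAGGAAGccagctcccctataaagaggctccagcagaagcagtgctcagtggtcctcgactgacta
Selp: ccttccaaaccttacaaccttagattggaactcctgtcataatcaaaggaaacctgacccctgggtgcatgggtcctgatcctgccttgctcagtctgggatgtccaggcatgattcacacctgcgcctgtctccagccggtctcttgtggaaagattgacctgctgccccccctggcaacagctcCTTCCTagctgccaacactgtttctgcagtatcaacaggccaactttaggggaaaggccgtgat

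The Icam1 window held the NF-kappaB-type match, from 153 to 145 bases before the start. The Sele and Selp windows each held a match to AGGAAG, from 65 to 60 and from 64 to 59 bases before the start. Only GGAANTTCC and AGGAAG were searched, so other forms of either site were not marked in any of the windows. Over all 32851 windows of this length, 0.813% held GGAANTTCC and 29.5% held AGGAAG. RefSeq windows matched 21 of the 37 members with 27 windows, of which 14 (51.9%) held AGGAAG and 1 held GGAANTTCC. Both motifs were picked with these sequences in view, do not overlap here, and a match is not evidence of binding.

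The comparison of CePPy with vehicle asks whether the treatment went with a different level of endothelial transcripts in the injured kidney. Group differences of the endothelial identity genes were close to 0. Their summed level was 1564, 1487 and 1373 CPM in vehicle 1, 2 and 3 and 1499, 1449 and 1550 CPM in CePPy 1, 2 and 3, so the groups overlapped. All 34 identity genes had log2 ratios (CePPy over vehicle) between -0.47 and 0.40, with a median of 0.06, 22 with higher and 12 with lower values. Over all 15416 genes tested the median was 0.00, and 83.6% lay within 0.5 of 0. Among the activation genes, Selp had lower values in each CePPy library, while Icam1 and Sele overlapped between the groups. In whole kidney, a different number of endothelial cells and a different amount of RNA per endothelial cell cannot be told apart.

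Of the 37 members, 0 passed the edgeR quasi-likelihood test at an adjusted p under 0.05 over all genes, where 0.00649% of all genes tested did. The lowest edgeR adjusted p of any member was 0.117, for Cav1. An unadjusted p under 0.05 was reached by 3 members with higher values (Cav1, Nrp1 and Tie1) and by 0 with lower values, where 9.65% and 9.37% of all genes did so. DESeq2 called 1 member, Cav1, where 6.66% of all genes were called. The groups did not overlap for 5 members with higher values in CePPy, where 12.3% of all genes showed this, and for 1 with lower values, where 14.0% did. Read against these shares, the counts of 5 and 3 are close to what the background gives for 37 genes, and those of 1 and 0 are below it. The 95% interval of the log2 ratio lay within -1 and 1 for 30 of the 37 members, against 74.4% of all genes, and it included 0 for 34.

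**Figure D1:**
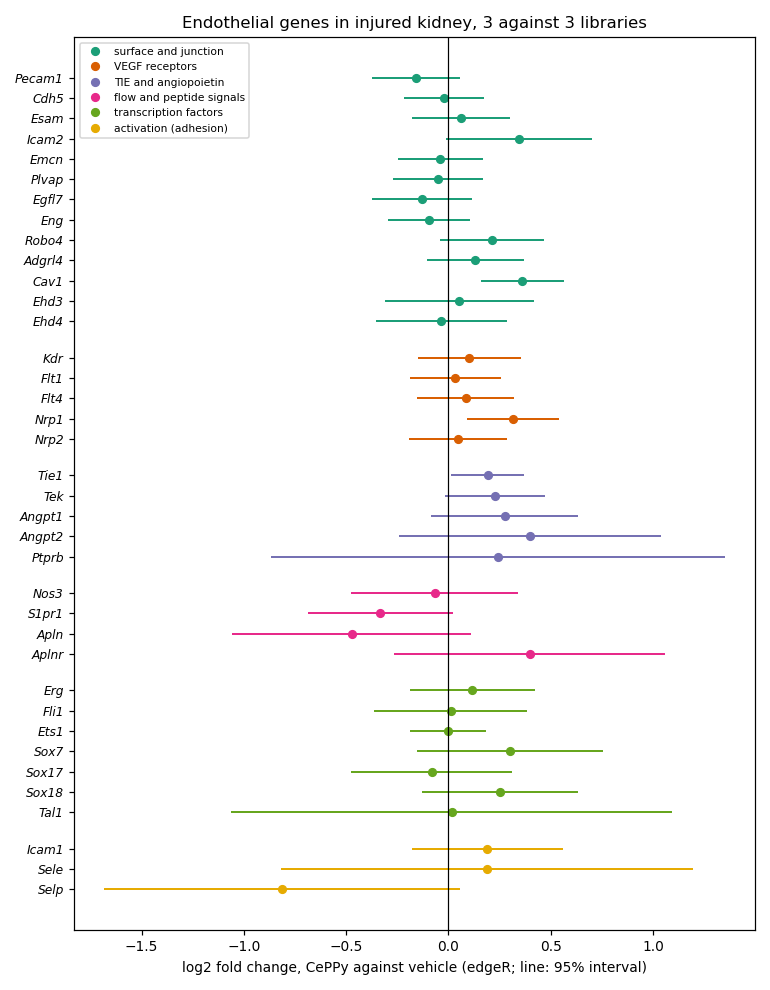
Log2 ratio of each of the 37 endothelial genes (x axis, CePPy against vehicle, edgeR, 3 libraries per group) by role (colour), with points for estimates and lines for 95% intervals. Most identity genes sit within 0.4 of 0, Selp sits at -0.81, and Ptprb, Tal1, Sele and Selp have the widest intervals.

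Surface and junction genes make up the largest role group, with 13 members, of which 6 had higher and 7 lower values (median log2 ratio -0.02). Levels between genes are compared as CPM per kilobase of exon. By that measure Plvap, which forms the diaphragms of fenestrated peritubular capillaries, was the most abundant of all 37 members, with a vehicle mean of 123 CPM per kilobase. Eng, endoglin, a co-receptor for TGF-beta and BMP ligands, followed at 40.7. Plvap measured 270, 231 and 229 CPM in vehicle and 238, 225 and 243 CPM in CePPy. Its CePPy values lay inside or just under the vehicle range, with a log2 ratio of -0.05 (95% interval -0.27 to 0.16, edgeR adjusted p = 0.798).

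Of the genes often used to recognise endothelium, Cdh5, Pecam1, Emcn and Eng were tightly measured (within-group SD of 0.09 to 0.10 log2 units). Ehd3 and Ehd4 varied more (0.24 and 0.21). Cdh5, VE-cadherin of the endothelial junction, measured 47.7, 53.8 and 47.0 CPM in vehicle and 46.7, 50.4 and 49.3 in CePPy, a log2 ratio of -0.02 (95% interval -0.21 to 0.17). Pecam1, the junction molecule CD31, measured 109, 116 and 95.8 CPM in vehicle and 93.7, 99.6 and 94.1 in CePPy. Its log2 ratio was -0.16 (95% interval -0.37 to 0.05), and its groups overlapped. Emcn, the capillary sialomucin endomucin, stood at -0.04, Esam, a junction adhesion molecule, at 0.06, and Eng at -0.10. Ehd3, a marker of glomerular endothelium, stood at 0.05 (95% interval -0.31 to 0.41) and its relative Ehd4, an endocytic trafficking protein, at -0.03. Egfl7, a secreted protein of the vessel wall whose gene carries miR-126, stood at -0.13, and Adgrl4, an adhesion receptor of endothelium, at 0.13.

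The other 3 of the 13 surface genes had higher values in every CePPy library than in any vehicle library. Over all genes tested, 12.3% showed this. Cav1, caveolin-1, the coat protein of caveolae (chromosome 6, 17306335 to 17341452, plus strand, GRCm38), measured 38.0, 42.8 and 38.8 CPM in vehicle and 54.9, 48.7 and 50.1 CPM in CePPy. The means were 39.9 ± 2.61 and 51.2 ± 3.25 CPM (SD, n = 3), a log2 ratio of 0.36 (SE 0.09, edgeR adjusted p = 0.117). DESeq2 called it higher (adjusted p = 0.0208). Cav1 is also made by smooth muscle, fibroblasts and injured epithelium. Icam2, an adhesion molecule that resting endothelium carries (chromosome 11, 106377656 to 106388075, minus strand), measured 8.16, 6.41 and 6.62 CPM in vehicle and 9.28, 9.33 and 8.30 in CePPy. Its log2 ratio was 0.34 (SE 0.15, edgeR adjusted p = 0.271). Robo4, an endothelial receptor linked to barrier function (chromosome 9, 37401897 to 37415115, plus strand), measured 19.3, 19.98 and 17.2 CPM in vehicle and 21.1, 23.9 and 20.5 in CePPy (log2 ratio 0.21, SE 0.11, edgeR adjusted p = 0.321). For Icam2 the gap between the groups was narrow, 8.16 CPM in vehicle 1 against 8.30 in CePPy 3.

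**Figure D2:**
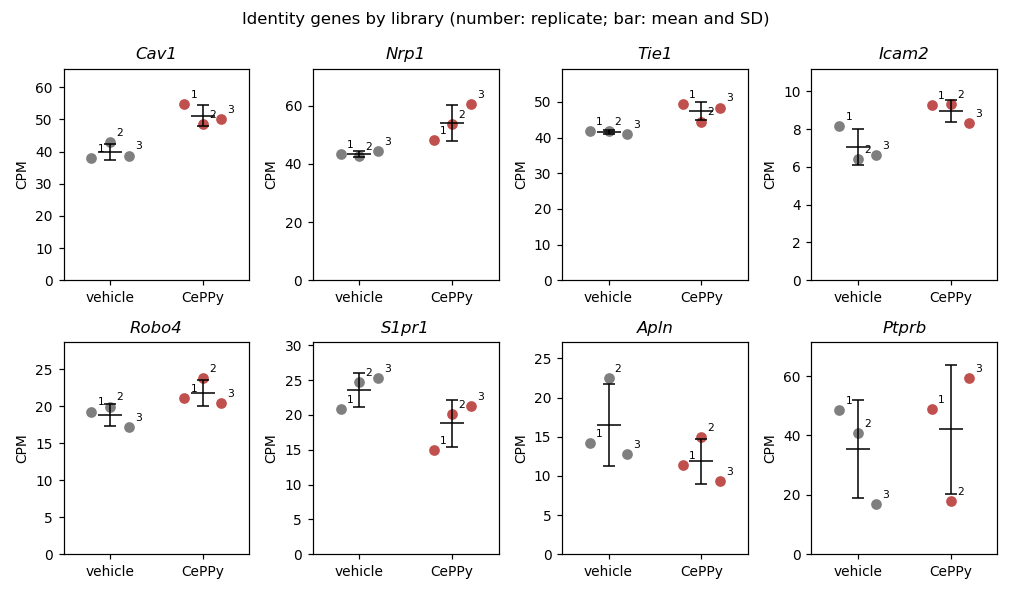
CPM (y axis) of 8 identity genes in each library of the vehicle and CePPy groups (x axis), with the replicate number beside each point and bars for mean and SD. Cav1, Nrp1, Tie1, Icam2 and Robo4 do not overlap between groups, S1pr1 and Apln do, and Ptprb is low in vehicle 3 and CePPy 2. Over all genes tested, 12.3% are higher in CePPy without overlap.

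All 5 VEGF receptors and co-receptors had log2 ratios above 0, with a median of 0.08. Their mean level, relative to the vehicle mean, overlapped between the groups. It was 0.0397 log2 units in vehicle 1 and 0.0305 in CePPy 2. Kdr, VEGFR2, the main signalling receptor for VEGF-A, measured 52.3, 46.5 and 47.1 CPM in vehicle and 59.4, 46.6 and 50.6 in CePPy. The groups overlapped, and the log2 ratio of 0.10 (edgeR adjusted p = 0.63) became 0.00 without CePPy 1. Flt1, VEGFR1, which acts as a decoy for VEGF-A, stood at 0.03 (95% interval -0.18 to 0.25), and Flt4, the VEGFR3 of lymphatic and fenestrated endothelium, at 0.08 (95% interval -0.15 to 0.32). Nrp1, neuropilin-1, a co-receptor for VEGF-A and semaphorins (chromosome 8, 128358604 to 128503363, plus strand), measured 43.4, 42.5 and 44.5 CPM in vehicle and 48.2, 53.5 and 60.6 in CePPy. Its means were 43.5 ± 0.993 and 54.1 ± 6.21 CPM (SD, n = 3), a log2 ratio of 0.32 (SE 0.10, edgeR adjusted p = 0.158). The vehicle libraries were close together and the CePPy libraries spread above them. Its relative Nrp2, which pairs with VEGFR3, stood at 0.05 (95% interval -0.19 to 0.28).

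The 5 members of the TIE axis also had log2 ratios above 0, with a median of 0.24. Their mean level overlapped too, at 0.0878, 0.171 and -0.259 log2 units in vehicle 1, 2 and 3 and 0.37, 0.0439 and 0.403 in CePPy. Tie1, an orphan receptor that modulates TIE2 (chromosome 4, 118471191 to 118490061, minus strand), measured 41.8, 41.9 and 40.8 CPM in vehicle and 49.4, 44.5 and 48.4 in CePPy. No library overlapped, and the log2 ratio was 0.19 (SE 0.08, edgeR adjusted p = 0.225). Tek, TIE2 itself, the angiopoietin receptor, measured 44.7, 36.8 and 35.2 CPM in vehicle and 45.5, 44.5 and 46.6 in CePPy, so vehicle 1 reached the CePPy range (log2 ratio 0.23, SE 0.10, edgeR adjusted p = 0.282). Angpt1, the ligand from mural cells and podocytes that quiets endothelium, stood at 0.28 (95% interval -0.08 to 0.63). Angpt2, the ligand that activated endothelium releases, measured 6.68, 12.7 and 6.18 CPM in vehicle and 9.65, 12.4 and 11.5 in CePPy. Vehicle 2 held the highest value of all 6, and the log2 ratio was 0.40 (95% interval -0.24 to 1.03).

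Ptprb, VE-PTP, the phosphatase that restrains TIE2 (chromosome 10, 116275523 to 116389535, plus strand), varied within both groups. It measured 48.5, 40.9 and 16.9 CPM in vehicle and 48.8, 17.8 and 59.4 in CePPy, so the low libraries were vehicle 3 and CePPy 2. Tie1 and Tek were also lowest of their group in these libraries, but by far less, at 40.8 and 35.2 CPM in vehicle 3 and 44.5 and 44.5 in CePPy 2. Angpt1 and Angpt2 did not follow this order in both groups. The within-group SD of Ptprb was 0.87 log2 units, larger than that of 99.1% of the 11256 genes averaging 5 CPM or more, whose median was 0.139. Its log2 ratio of 0.24 therefore had a 95% interval from -0.86 to 1.35. What set this split was not tested.

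Of the 4 genes of flow and peptide signalling, 1 had higher and 3 lower values (median log2 ratio -0.20). Apln and S1pr1 held the lowest log2 ratios among the identity genes. S1pr1, the sphingosine 1-phosphate receptor that keeps junctions closed (chromosome 3, 115710433 to 115715072, minus strand), measured 20.8, 24.7 and 25.3 CPM in vehicle and 14.97, 20.1 and 21.3 in CePPy. CePPy 3 lay above vehicle 1, and the log2 ratio was -0.33 (SE 0.15, edgeR adjusted p = 0.28), or -0.19 without CePPy 1. S1pr1 is also carried by lymphocytes. Apln, the vasodilator peptide apelin of tip cells, measured 14.2, 22.5 and 12.8 CPM in vehicle and 11.4, 14.996 and 9.30 in CePPy (log2 ratio -0.47, 95% interval -1.05 to 0.10). Its receptor gene Aplnr stood at 0.40 (95% interval -0.26 to 1.05), with vehicle 2 lowest at 4.50 CPM, the library in which Apln was highest. Nos3, endothelial nitric oxide synthase, stood at -0.07 (95% interval -0.47 to 0.33).

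Transcription factors that hold endothelial identity had a median log2 ratio of 0.02 over 7 genes, 5 with higher and 2 with lower values. Among the ETS factors, Ets1 stood at 0.00 (95% interval -0.18 to 0.18), Fli1 at 0.01 (-0.36 to 0.38) and Erg at 0.12 (-0.19 to 0.42). Ets1 was the most precise of these, at 47.8, 43.8 and 42.3 CPM in vehicle and 44.3, 45.4 and 43.9 in CePPy. Of the SOXF factors, which act in arterial and lymphatic fate, Sox18 measured 18.9, 15.4 and 12.9 CPM in vehicle and 20.1, 16.01 and 20.2 in CePPy. Its groups overlapped (log2 ratio 0.25, SE 0.16, edgeR adjusted p = 0.428). Sox7 stood at 0.30 (95% interval -0.15 to 0.75) and Sox17 at -0.08 (-0.47 to 0.30). Tal1, a factor of blood and early endothelial development, was scarce at 1.89, 1.88 and 2.05 CPM in vehicle and 0.703, 2.34 and 2.87 in CePPy. CePPy 1 held 25 counts of Tal1, against 64 to 88 in the other libraries.

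The activation genes did not move as a group. Icam1, ICAM-1, the integrin ligand that leukocytes bind when they stop (chromosome 9, 21015985 to 21028817, plus strand), measured 59.2, 67.9 and 49.0 CPM in vehicle and 55.2, 79.1 and 66.5 in CePPy. The highest value was in CePPy 2, and the groups overlapped. The means were 58.7 ± 9.47 and 67.0 ± 12.0 CPM (SD, n = 3), a log2 ratio of 0.19 (SE 0.16, 95% interval -0.17 to 0.55, edgeR adjusted p = 0.541), or 0.05 without CePPy 2. Icam1 ranked 7th among the 37 members by CPM per kilobase in vehicle, at 13.5, and injured tubule cells and leukocytes make it too.

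The selectins were the scarcest of the 37 members per kilobase. Selp, P-selectin, on which leukocytes first roll (chromosome 1, 164115264 to 164150026, plus strand), had 61, 67 and 63 counts in vehicle and 20, 51 and 37 in CePPy. That is 1.70, 1.97 and 1.87 CPM against 0.563, 1.36 and 1.23 CPM, with every CePPy library below every vehicle library and CePPy 1 lowest. The log2 ratio was -0.81 (SE 0.37, 95% interval -1.68 to 0.05, edgeR adjusted p = 0.286), -0.51 without CePPy 1 and -1.05 without CePPy 2. Sele, E-selectin, which endothelium makes on inflammatory stimulation (chromosome 1, 164048234 to 164057677, plus strand), had 14, 26 and 21 counts in vehicle and 31, 22 and 17 in CePPy. Its log2 ratio of 0.19 had a 95% interval from -0.81 to 1.19 (edgeR adjusted p = 0.842). The sign of the Sele value turned without vehicle 1 or CePPy 1, to -0.04 in each case.

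**Figure D3:**
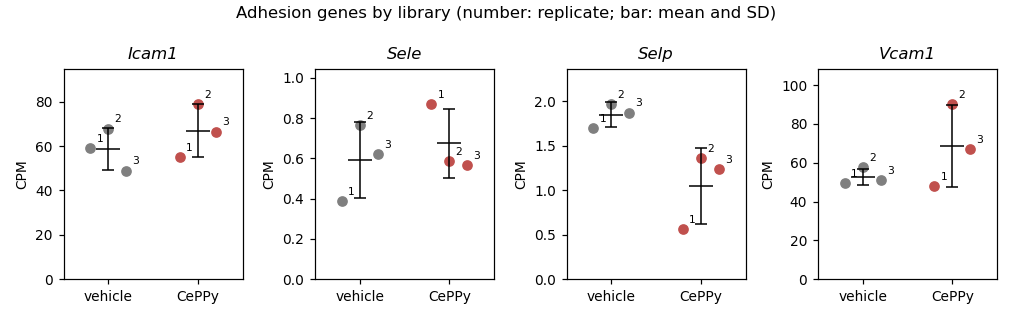
CPM (y axis) of the 3 activation genes and of Vcam1 in each library of the vehicle and CePPy groups (x axis), with the replicate number beside each point and bars for mean and SD. Selp is lower in each CePPy library, Icam1 and Vcam1 are highest in CePPy 2, and Sele is below 1 CPM throughout.

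Platelets carry P-selectin as well, so their markers stand beside the Selp result. Of 7 platelet genes, 4 were tested, and all 4 had log2 ratios below 0 (median -0.47). EdgeR called 0 of them, and 0 had an unadjusted p under 0.05 (9.37% lower over all genes). Itga2b stood at -0.0006 (SE 0.28) and Pf4 at -0.09 (SE 0.29), both close to 0. Gp1ba (-1.10, SE 1.04) and Ppbp (-0.86, SE 0.79) had only 1 to 26 and 4 to 49 counts per library. The summed level of the 7 overlapped, at 6.42 to 8.52 CPM in vehicle and 4.63 to 8.19 in CePPy. None of the 7 was at 0 in every library. Neutrophil genes, with 7 tested and all 7 at lower values (median -1.16), summed to 40.6 to 58.1 CPM in vehicle and 12.3 to 26.4 in CePPy. EdgeR called 0 neutrophil genes, with 6 lower at an unadjusted p under 0.05 (9.37% over all genes). DESeq2 called 4 of them lower (6.66% over all genes in either direction). Macrophage genes, with 2 higher and 6 lower, summed to 219 to 263 CPM in vehicle and 195 to 244 in CePPy. EdgeR and DESeq2 called 0 macrophage genes, and 0 had an unadjusted p under 0.05 with edgeR. The part of these cells in the Selp and Icam1 values was not tested.

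A list of genes whose products on leukocytes bind endothelial adhesion molecules, several of which other kidney cells also make, had 2 higher and 6 lower values among 8 tested (median -0.23). EdgeR and DESeq2 called 0 of them, and 0 had an unadjusted p under 0.05 with edgeR (9.65% higher and 9.37% lower over all genes). The integrin subunit gene Itgam, part of the receptor for ICAM-1 on myeloid cells, measured 17.7, 11.8 and 18.1 CPM in vehicle and 7.20, 9.09 and 15.2 in CePPy. Its groups overlapped (log2 ratio -0.60, SE 0.29, edgeR adjusted p = 0.302). Itgal, an integrin subunit of the lymphocyte receptor for ICAM-1, stood at -0.33 (SE 0.19, edgeR adjusted p = 0.371). Among 18 tested genes of the inflammatory pathway that drives endothelial activation, 5 had higher and 13 lower values (median -0.20). EdgeR called 0 of them, with 5 lower at an unadjusted p under 0.05 (9.37% over all genes). DESeq2 called 2 lower, Il1b and Nfkbia (6.66% over all genes in either direction). Il1b, the cytokine interleukin-1 beta, measured 15.3, 17.8 and 15.8 CPM in vehicle and 3.04, 5.40 and 6.87 in CePPy, a log2 ratio of -1.68 (SE 0.27, edgeR adjusted p = 0.0813). Nfkbia, the inhibitor that NF-kappaB itself induces, stood at -0.82 (SE 0.19, edgeR adjusted p = 0.112). Vcam1, the adhesion molecule VCAM-1 that binds monocytes and lymphocytes, measured 49.6, 57.6 and 51.0 CPM in vehicle and 48.0, 90.4 and 67.0 in CePPy. Its groups overlapped (log2 ratio 0.38, SE 0.20, edgeR adjusted p = 0.352), and its highest library, CePPy 2, was also the highest for Icam1.

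The list of ligands of the VEGF and BMP families, with the angiopoietin relative Angptl4, had 7 of 9 genes tested, Gdf2 and Bmp10 being at 0 counts in every library. Of the 7, 3 had higher and 4 lower values. EdgeR called 0, with 3 lower at an unadjusted p under 0.05 (9.37% over all genes), and DESeq2 called 1 lower, Bmp6 (6.66% over all genes in either direction). Vegfa, made mainly by podocytes and tubules, measured 82.6, 71.8 and 88.8 CPM in vehicle and 110, 78.5 and 91.2 in CePPy (log2 ratio 0.20, SE 0.14, edgeR adjusted p = 0.449). Bmp6, a bone morphogenetic protein best known for control of iron through hepcidin, measured 159, 143 and 163 CPM in vehicle and 78.5, 131 and 96.6 in CePPy (-0.60, SE 0.17, edgeR adjusted p = 0.148). Angptl4, an inhibitor of lipoprotein lipase related to the angiopoietins, stood at -0.65 (SE 0.26, edgeR adjusted p = 0.236).

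Endothelial genes outside the 37 also had a median near 0, with a few genes to either side. Of 19, 9 had higher and 10 lower values (median -0.02). EdgeR called 0, with 4 higher and 3 lower at an unadjusted p under 0.05 (9.65% and 9.37% over all genes). DESeq2 called Ace higher and Thbd lower (6.66% over all genes in either direction). Thbd, thrombomodulin, the anticoagulant receptor of the vessel surface, measured 72.2, 67.0 and 65.7 CPM in vehicle and 50.3, 46.9 and 50.1 in CePPy (log2 ratio -0.48, SE 0.08, edgeR adjusted p = 0.0813). Ace, angiotensin-converting enzyme, which the proximal tubule brush border also makes, measured 69.1, 71.2 and 76.3 CPM in vehicle and 141, 93.0 and 121 in CePPy (0.71, SE 0.14, edgeR adjusted p = 0.102). Cd34, a sialomucin of capillary endothelium, stood at 0.31 (SE 0.09, edgeR adjusted p = 0.159), with no overlap between groups. Vwf, the clotting protein von Willebrand factor, stood at 0.47 (SE 0.43, edgeR adjusted p = 0.581) and ranged from 1.75 to 5.33 CPM in vehicle and from 3.35 to 7.20 in CePPy.

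Notch genes and genes that respond to blood flow had 10 higher and 5 lower values among 15 (median 0.08). EdgeR called 0, with 1 in each direction at an unadjusted p under 0.05 (9.65% higher and 9.37% lower over all genes). DESeq2 called 1 lower (6.66% over all genes in either direction). Klf2, a transcription factor that laminar flow induces in endothelium, measured 40.6, 30.4 and 31.9 CPM in vehicle and 19.6, 21.6 and 24.1 in CePPy (log2 ratio -0.66, SE 0.14, edgeR adjusted p = 0.102), and DESeq2 called it lower. Klf2 is known to act upstream of Thbd and Nos3. Thbd had lower values in each CePPy library, while Nos3 overlapped. A link between the Klf2 values and those of Thbd or Nos3 was not tested. Jag1, a Notch ligand, stood at 0.32 (SE 0.11, edgeR adjusted p = 0.194).

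The level of the identity list in single libraries spread by as much within a group as between them. Relative to the vehicle mean it was 0.0726, 0.0307 and -0.103 log2 units in vehicle 1, 2 and 3 and 0.0389, 0.052 and 0.141 in CePPy 1, 2 and 3. CePPy 1, which was far from vehicle in the proximal tubule and neutrophil lists, lay inside the vehicle range here. Marker lists of other cells gave medians of -0.11 for 6 mural genes, 0.23 for 6 lymphatic genes, -0.05 for 6 podocyte genes and -0.06 for 6 erythroid genes. EdgeR called 0 genes in these 4 lists. DESeq2 called 3 (6.66% over all genes in either direction), which were named after their values were seen. Acta2, smooth muscle actin, stood at -0.79 (SE 0.17, edgeR adjusted p = 0.104). Prox1, a lymphatic factor that kidney tubules also make, stood at 1.11 (SE 0.26, edgeR adjusted p = 0.116). Slc4a1, an anion exchanger of red cells and intercalated cells, stood at 1.04 (SE 0.31, edgeR adjusted p = 0.15). At an unadjusted p under 0.05 these lists held 0 higher and 1 lower mural gene, 1 and 0 lymphatic, 0 and 2 podocyte, and 1 and 0 erythroid. Over all genes tested, 9.65% were higher and 9.37% lower at that p.

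**Figure D4:**
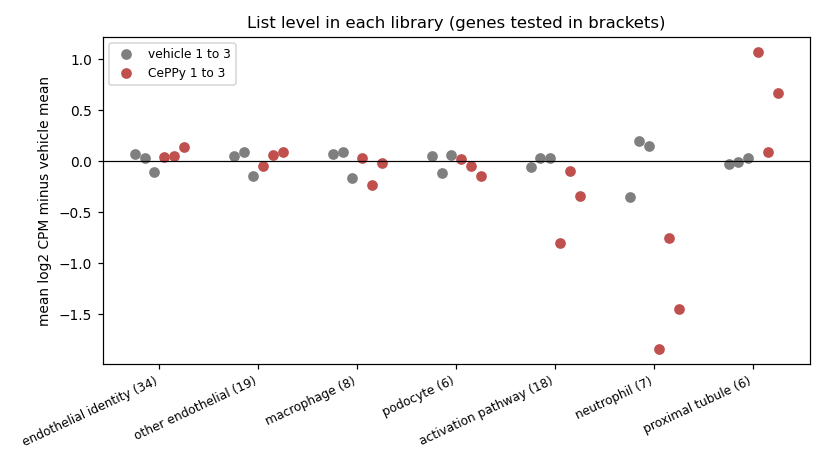
Mean log2 CPM of each list minus its vehicle mean (y axis) in the 3 vehicle libraries (grey) and 3 CePPy libraries (red), for 7 lists (x axis, genes tested in brackets). The endothelial identity points lie between -0.103 and 0.141, while CePPy 1 reaches 1.07 in the proximal tubule list and -1.84 in the neutrophil list.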

How the data were processed

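The authors deposited a single table of raw gene counts, whole numbers with no normalization. The submitters' processing notes name TopHat2, Cufflinks, DESeq and the build GRCm38, without versions or roles. No source used here states how reads were counted or whether strand was used. Exons of 8 members overlap another gene, 7 of them on the opposite strand (Egfl7, Eng, Angpt1, Nos3, Sox17, Icam1 and Selp), so their reads may be mixed.

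Columns were matched to samples through the labels. Genes passing filterByExpr were scaled by TMM and tested with edgeR 4.0.16 (R 4.3.3; glmQLFit and glmQLFTest), with treatment as the only term and Benjamini-Hochberg adjustment over all 15416 genes. CPM values use the TMM-scaled library size. Group means carry the SD over 3 libraries, and log2 ratios (log2 fold changes) their SE. Intervals use that SE and the test's degrees of freedom. The total count per library, 29762157 to 37415213, sets the precision of scarce genes. Exon lengths and coordinates come from GENCODE M21 (GRCm38), in which all 37 members were found.

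Members with values in every library are the activation genes, those with an unadjusted p under 0.05 or groups that do not overlap, and in each role the gene of highest level per length and of lowest p. Tek, Cdh5, Pecam1, Ets1, Angpt2, Apln, Ptprb and Tal1 were added after their values were seen. Of other pathway genes, the 2 of lowest p per list were named, with Vegfa, Vcam1, Vwf and Cd34. From the leukocyte list, 1 gene is not reported here and was left out of its counts. The members and lists were chosen with earlier results of these data known. Alternatives were DESeq2 1.42.0, limma 3.58.1 (voom, with and without sample weights), other scaling factors and filters, a replicate block and each library left out.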

Additional observations from a re-analysis of the deposited data

How the results depend on the processing

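The median log2 ratio of the identity genes lay between 0.03 and 0.10 under all 15 alternatives, leaving out each library included. The number of members called stayed at 0, except that DESeq2 called 1 (Cav1). Over all genes, edgeR called 1, DESeq2 1026 (528 higher, 498 lower), limma-voom with sample weights 352, edgeR without the filter on low counts 63, and between 0 and 811 with a library left out, the highest being without CePPy 2. The cause was not tested. The median of the 3 activation genes was 0.19, became -0.31 with at least 1 CPM in 3 libraries required, where only Icam1 and Selp were left, and ranged from -0.0412 to 0.309 with a library left out. With a library left out, Sele ranged from -0.0412 to 0.416, turning below 0 without vehicle 1 (-0.0412) or CePPy 1 (-0.0362). Plvap ranged from -0.0929 to 0.0278, turning above 0 without vehicle 1. Selp stayed below 0, from -1.05 to -0.51, with edgeR, limma or DESeq2 adjusted p between 0.198 and 0.473. Same-numbered libraries did not deviate together (correlations across genes of -0.148, 0.105 and -0.0178), and only vehicle 2 correlated best with its own number. With the replicate block edgeR called 0 genes and 0 members. At this depth Sele, Selp and Tal1 had the fewest counts of the members, 14 to 88 per library, and counting error was not separated from other spread between libraries.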
